A study of Mus musculus with 9 samples.

Results

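The 32 genes described here encode the enzymes of glycolysis and a set of genes that respond to low oxygen through the transcription factor HIF-1. They were taken by symbol from a table of 23415 genes, and all 32 symbols were found. Mouse symbols are written in capitals, as the table has them. Colonic CD4+ T cells had been profiled in transfer colitis, a model in which transferred naive T cells inflame the large intestine of a host devoid of T and B cells. The donors of the CD4+ CD25- CD45RBhigh cells were CD160 knockout mice in 4 libraries and wildtype littermates in 5 libraries. All recipients were Rag1-/- mice with colitis, so the comparison holds no healthy colon, and such hosts keep their own macrophages, neutrophils and stroma. Each library came from 5000 sorted CD4+ T cells. The labels give neither age nor sex, nor do they say whether each library is a separate recipient. The p-values therefore speak only to library-to-library spread, which may be technical. Values are TPM, a share of transcripts corrected for transcript length, in which levels of different genes can be compared within a library. The depth behind them is unknown.

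Glycolysis splits glucose to pyruvate in the cytosol. Activated effector T cells rely on it, and lactate dehydrogenase turns the pyruvate into lactate. When oxygen is low, prolyl hydroxylases of the EGLN family no longer mark HIF-1 alpha for destruction by the VHL ligase complex. The stabilised factor then raises transcription of most glycolytic enzymes and of genes such as PDK1, BNIP3 and VEGFA. T cell receptor and cytokine signals can stabilise HIF-1 alpha as well, and in T helper cells the factor is known for its part in the Th17 and regulatory T cell fates. Protein stability is not read by transcript levels.

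Features of the libraries bear on every value below. In control replicate 1, 7308 genes reached 1 TPM, against 11088 to 11711 in the other 8 libraries, and its median Spearman correlation with the rest was 0.872, against 0.940 to 0.950. Results are given with all 9 libraries and without it. CD160 stood at 5.44 to 18.8 TPM in knockout and 31.8 to 212.4 TPM in control libraries. The entry for the reporter tdTomato held 0 in every knockout library and 2.52 to 8.78 TPM in the controls, a difference between the groups that the labels do not name. The T cell markers CD3D, CD3E, CD3G, CD4, CD2, CD5, LAT and LCK were detected in every library, and 8 of 8 had a lower mean in knockout libraries than in control replicates 2 to 5. Their summed level was 4455 to 5675 TPM in knockout libraries, 5485 to 6289 TPM in control replicates 2 to 5 and 1883 TPM in control replicate 1. Markers of macrophages and monocytes were also present in the sort. Their 10 genes summed to 10752, 8822, 14224 and 15781 TPM across knockout replicates 1 to 4, to 1025 TPM in control replicate 1 and to 9725, 2621, 5577 and 2412 TPM in control replicates 2 to 5. All 10 had the higher mean in knockout libraries, none of the 10 was at 0 in any library, and for 0 of 10 did the groups separate fully among these 8 libraries. Macrophages also express both pathways, and their part in the differences below was not tested. In sorted bulk samples fewer cells of a type and less RNA per cell cannot be told apart.

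Across the list the knockout libraries were slightly higher, and no gene was called. Of the 31 tested genes (all but VEGFA, which was below the filter of 1 TPM in 4 libraries), 0 passed an adjusted p of 0.05 in limma with all 9 libraries, where 0.0174% of all 11495 tested genes passed. Without control replicate 1 again 0 passed, against 0.0262% of 11457 genes. At an unadjusted p under 0.05 there were 2 of 31 (6.45%) with all libraries, PFKFB4 and ALDOC, both of them higher in knockout libraries, against a background of 6.39% in either direction and 5.78% in that direction. With control replicate 1 left out there were 5 of 31 (16.1%), HK2, PFKFB3, PFKFB4, HIF1A and P4HA1, again all higher, against 12.8% and 8.44%. Each difference is knockout minus control in units of log2(TPM + 1), a scale that understates changes of low genes. With all libraries 28 of 31 were positive (90.3%), where 86.7% of all tested genes were, and the median was 0.82, against 0.46 for all genes. Without control replicate 1, 27 of 31 were positive (87.1%), where 47.5% of all tested genes were, and the median was 0.19, against -0.014. When knockout replicate 1 was left out too, 24 of 31 were positive (77.4%), where 49.9% of all were, and the median was 0.097.

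The mean level over the 32 genes gives the same picture by library. On the log2(TPM + 1) scale it was 5.71, 5.56, 5.37 and 5.42 in knockout replicates 1 to 4. In control replicates 2 to 5 it was 5.27, 5.27, 5.29 and 5.18, and in control replicate 1 it was 2.84. Every knockout library thus lay above every control library, by little in knockout replicates 3 and 4. Taken by role, this held for upper glycolysis and for the HIF-1 targets outside the pathway. Lower glycolysis overlapped, at 8.69 to 9.50 in knockout libraries and 8.78 to 8.90 in control replicates 2 to 5. Pyruvate fate and HIF-1 with its regulators overlapped as well. Over the 32 genes the group means were 5.51 ± 0.150 (SD, n = 4) and 4.77 ± 1.08 (SD, n = 5). Without control replicate 1 the latter was 5.25 ± 0.0469 (SD, n = 4). The mean over all tested genes was 4.01 to 4.21 in knockout libraries and 3.95 to 4.15 in control replicates 2 to 5. In control replicate 1 the mean over all tested genes was 2.09. As a share of all transcripts, the 32 genes took 0.695% to 1.13% of the TPM in knockout libraries and 0.787% to 0.822% in control replicates 2 to 5, and on this measure the groups overlapped. In control replicate 1 the share was 0.27%.

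**Figure D1:**
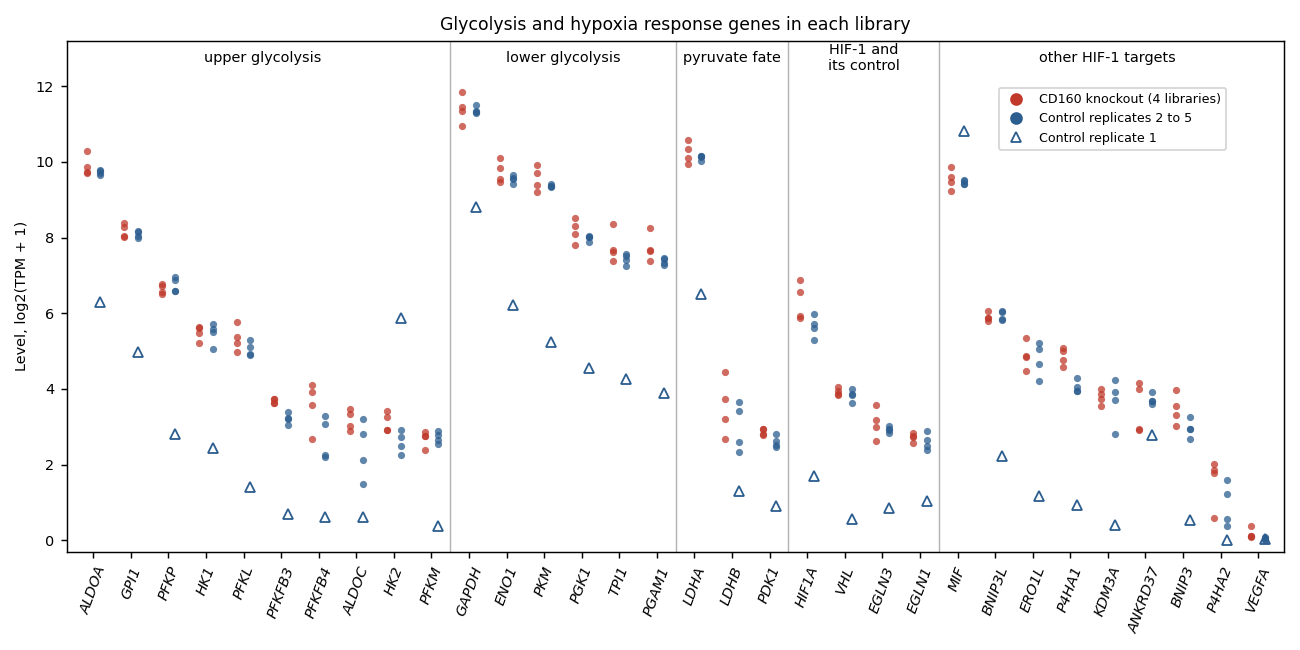
Level of each of the 32 genes on the log2(TPM + 1) scale (vertical axis), grouped by role and ordered by mean level. Filled circles are the 4 knockout libraries (red) and control replicates 2 to 5 (blue), and open triangles are control replicate 1, which lies lowest for 29 genes and highest for HK2 and MIF.

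The genes spanned a wide range of abundance. Over the 8 libraries other than control replicate 1, GAPDH was highest at a mean of 2700 TPM and VEGFA lowest at 0.0838 TPM, and 11 of the 32 averaged above 100 TPM. These 11 were glycolytic enzymes and the cytokine MIF. The order after GAPDH was LDHA (1166 TPM), ALDOA (907 TPM), ENO1 (806 TPM), MIF (729.8 TPM) and PKM (711 TPM), of which LDHA, ALDOA and ENO1 kept this order in all 8 libraries, whereas MIF changed places with ENO1 or PKM between libraries. Another 11 averaged under 10 TPM: HK2, PFKM, PFKFB4, ALDOC, LDHB and PDK1 of the glucose and pyruvate steps, the regulators EGLN1 and EGLN3, and the targets P4HA2, BNIP3 and VEGFA.

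Enzymes of the upper part of glycolysis trap glucose in the cell and split it into trioses. With all libraries 9 of 10 differences were positive and 0 were called; without control replicate 1, 8 of 10 were positive, with a median of 0.23. PFKFB3, which makes the sugar bisphosphate that activates phosphofructokinase, stood at 12.3, 11.4, 12.2 and 11.3 TPM across knockout replicates 1 to 4. Control replicates 1 to 5 had 0.63, 7.3, 8.2, 8.43 and 9.58 TPM. Every knockout library was above every control library, and the knockout values lay close together. The mean was 11.8 ± 0.533 TPM (SD, n = 4) against 8.38 ± 0.938 TPM (SD, n = 4) in control replicates 2 to 5, 1.41-fold higher in knockout libraries. Limma gave a log2 difference of 0.96 (SE 0.55, adjusted p = 0.745), and without control replicate 1 it was 0.45 (SE 0.12, adjusted p = 0.185). An exact permutation test, two-sided, returned p = 0.0159 with 9 libraries and p = 0.0286 with 8, in each case the smallest the splits allow. Any gene whose groups do not overlap gets these unadjusted values, so they only restate the separation.

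Its paralogue PFKFB4 had the largest difference in the group and a wide spread. It stood at 5.39, 10.99, 16.3 and 14.1 TPM across knockout replicates 1 to 4 and at 0.52, 8.7, 3.8, 7.41 and 3.62 TPM across control replicates 1 to 5. Knockout replicate 1 lay among the controls, and the other 3 knockout libraries lay above them. On the log2 scale the difference was 1.29 (SE 0.56, adjusted p = 0.745) in limma, and 0.87 with an adjusted p of 0.361 without control replicate 1. ALDOC, the aldolase best known from brain, stood at 9.09, 6.34, 10.2 and 7.18 TPM in knockout libraries and at 0.53, 8.22, 3.36, 6.02 and 1.78 TPM in controls. Control replicate 2 lay within the knockout range and the other controls below it. This gave a log2 difference of 1.13, with an adjusted p of 0.745 in limma, and 0.78 with 0.405 without control replicate 1. For both genes control replicate 2, which had the highest macrophage marker sum of the controls, was the highest control, whereas for PFKFB3 and HIF1A it was the lowest of control replicates 2 to 5. The part of macrophages in these levels was not tested.

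HK2, the inducible hexokinase that traps glucose in the cell, had a difference whose sign depended on control replicate 1. It stood at 8.6, 6.54, 6.58 and 9.76 TPM in knockout libraries and at 57.9, 6.55, 4.59, 5.6 and 3.75 TPM in controls. Control replicate 1 was 11.3-fold above the mean of the other controls. Control replicate 2 lay just above knockout replicate 2, and control replicates 3 to 5 lay below all knockout libraries. The log2 difference was -0.12 with all libraries and 0.54 without control replicate 1 (SE 0.20, adjusted p = 0.294 in limma). Its constitutive paralogue HK1 had a log2 difference of 0.011 without control replicate 1, at 43.8 ± 5.83 TPM (SD, n = 4) against 43.8 ± 8.43 TPM (SD, n = 4).

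The most abundant enzyme of this part of the pathway was ALDOA, the main aldolase of muscle and lymphocytes. Its values were 1241, 936, 839.4 and 849 TPM in knockout libraries and 77.7, 888, 831.5, 866.6 and 801.8 TPM in controls. Only knockout replicates 1 and 2 exceeded all controls. Limma gave a log2 difference of 0.86 with all libraries and 0.17 (SE 0.12) without control replicate 1. PFKP, the platelet-type phosphofructokinase, stood at 107.6, 103.6, 92.7 and 90.4 TPM in knockout libraries and at 6.02, 94.7, 123, 94.9 and 116.1 TPM in controls. The groups overlapped and the log2 difference was 0.67 with all libraries and -0.11 without control replicate 1. Without that library the isomerase GPI1 and the liver and muscle phosphofructokinases PFKL and PFKM had log2 differences of 0.087, 0.28 and -0.027.

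The 6 enzymes of the lower part, which yield ATP and pyruvate, had positive differences under both sets of libraries, except GAPDH under another scaling, and 0 were called. GAPDH, the dehydrogenase often used as a reference gene, stood at 3671, 2802, 1969 and 2594 TPM across knockout replicates 1 to 4. Control replicates 1 to 5 had 447.1, 2603, 2917, 2539 and 2509 TPM. The knockout libraries lay on both sides of the controls. On the log2 scale the difference was 0.54 (SE 0.50) with all libraries, -0.071 with median-of-ratios scaling of these, and 0.030 (SE 0.16) without control replicate 1. PGAM1, a mutase, had the largest difference of the 6 without that library, at 0.36 (SE 0.17, adjusted p = 0.414) in limma, followed by the isomerase TPI1 at 0.31. PGK1, ENO1 and PKM, the kinases and enolase of these steps, had 0.20, 0.19 and 0.19.

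Of the 10 enzymes above 100 TPM, 9 (these 6 with GPI1, ALDOA and LDHA) were highest in knockout replicate 1, and the tenth, PFKP, was highest in control replicate 3. For the 9, knockout replicate 1 was above all 4 of control replicates 2 to 5 in 9 of 9. Knockout replicate 3 was below all 4 in 4 of 9. The coefficient of variation of the 9 was 13.0% to 31.8% in knockout libraries and 2.37% to 9.86% in control replicates 2 to 5. For PFKP the order was the other way, at 8.44% and 13.6%, and over the whole list 18 of 32 genes varied more in knockout libraries. Knockout replicate 1 held the highest value of the 8 libraries for 19 of the 32 genes. It also had the highest neutrophil marker sum of those 8, at 150.4 TPM against 20.4 to 57.9 TPM, with S100A8 at 62.3 TPM. CXCR2, another of these markers, was at 17.2 TPM there, within the 11.2 to 20.2 TPM of the 8 libraries. In control replicate 1 the neutrophil sum was 325.5 TPM and S100A8 was at 209.9 TPM. The macrophage marker sum of knockout replicate 1, 10752 TPM, lay within the range of the knockout libraries, with LYZ2 and CD14 at their highest knockout value there. CSF1R, ADGRE1, C1QA, C1QB, C1QC, MRC1 and FCGR3 were at their lowest knockout value there. The mean log2(TPM + 1) of the 10 macrophage markers was 7.80 in knockout replicate 1 and 8.52 to 9.30 in the other knockout libraries. In control replicate 2 that mean was 8.30. The part of these cells in the enzyme levels was not tested. Without knockout replicate 1 and control replicate 1 the median difference of the lower enzymes was 0.080.

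At the fate of pyruvate, LDHA, which makes lactate, stood at 1523, 1306, 981.7 and 1093 TPM in knockout libraries and at 89.7, 1109, 1034, 1137 and 1146 TPM in controls. The groups overlapped, with a log2 difference of 0.85 with all libraries and 0.13 (SE 0.13) without control replicate 1. LDHB, the paralogue that favours the reverse reaction, had 0.85 and 0.51, with a spread of 5.44 to 20.9 TPM among the knockout libraries. PDK1 encodes a kinase that inhibits pyruvate dehydrogenase. It stood at 6, 5.86, 6.61 and 6.61 TPM in knockout libraries and at 0.86, 4.49, 5.17, 5.99 and 4.75 TPM in controls. Control replicate 4 alone reached the knockout range. Its log2 difference was 0.26 (SE 0.14, adjusted p = 0.486) in limma without control replicate 1.

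**Figure D2:**
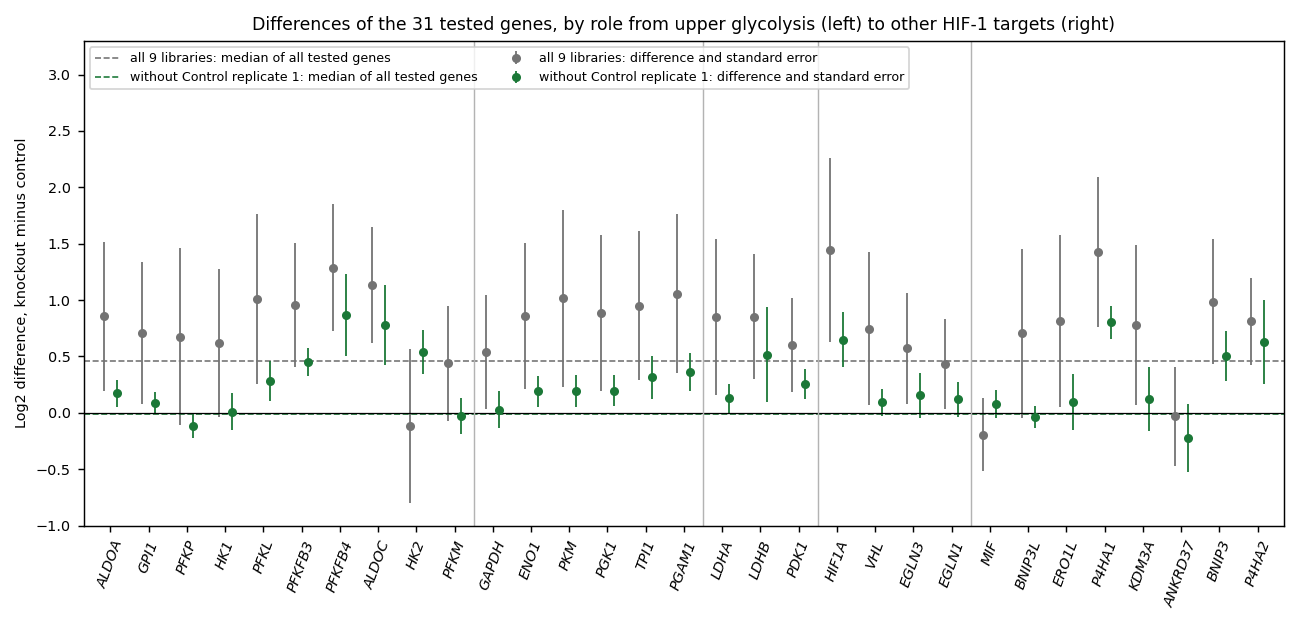
Log2 difference, knockout minus control, of each of the 31 tested genes with its standard error (vertical axis), with all 9 libraries (grey) and without control replicate 1 (green). Dashed lines are the medians of all tested genes, 0.46 and -0.014; P4HA1, PFKFB4 and ALDOC lie highest without control replicate 1.

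HIF1A encodes the oxygen-regulated subunit of HIF-1. Its transcript stood at 116, 92.6, 59.6 and 57.2 TPM across knockout replicates 1 to 4 and at 2.22, 38.3, 51.5, 62.5 and 47.7 TPM across control replicates 1 to 5. Knockout replicates 1 and 2 were above all controls, and knockout replicates 3 and 4 lay below control replicate 4. With all libraries the log2 difference was 1.44, the largest of the list (SE 0.82, adjusted p = 0.745 in limma). Without control replicate 1 it was 0.65 (SE 0.24, adjusted p = 0.306), and 0.46 when knockout replicate 1 was left out too. The genes that remove the protein had smaller differences, a contrast that was not tested. Without control replicate 1, the ubiquitin ligase subunit VHL had 0.094, and the prolyl hydroxylases EGLN1 and EGLN3 had 0.12 and 0.16, each below its standard error of 0.12, 0.16 and 0.20. With all libraries EGLN1 was 0.43, but -0.015 under median-of-ratios scaling and -0.070 under quantile scaling. EGLN3, itself a HIF-1 target, was highest in knockout replicate 1 at 10.8 TPM and lowest of the 8 libraries in knockout replicate 4 at 5.13 TPM.

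Among the remaining HIF-1 targets, P4HA1 had the smallest unadjusted p of the list without control replicate 1 (0.000399 in limma). It encodes the catalytic subunit of the prolyl hydroxylase that matures collagen chains in the endoplasmic reticulum. Its values were 26.3, 31.01, 32.8 and 22.8 TPM across knockout replicates 1 to 4 and 0.92, 18.5, 14.3, 14.3 and 15.6 TPM across control replicates 1 to 5. Every knockout library was above every control library. The mean was 28.2 ± 4.55 TPM (SD, n = 4) against 15.7 ± 2 TPM (SD, n = 4) in control replicates 2 to 5, 1.80-fold higher in knockout libraries. This gave a log2 difference of 1.43 (SE 0.66, adjusted p = 0.745) in limma, and without control replicate 1 it was 0.80 (SE 0.15, adjusted p = 0.114). An exact permutation test, two-sided, returned p = 0.0159 with 9 libraries and p = 0.0286 with 8, the smallest values possible. As for PFKFB3, these unadjusted values follow from the lack of overlap and add nothing to it. With library quality weights, a limma fit that gives a deviating library less weight, P4HA1 was called with an adjusted p of 0.0189. It was the 1 call among 31 tested genes of the list, where 521 of all 11495 tested genes were called. P4HA1 and PFKFB3 were the only tested genes of the list whose groups did not overlap, 2 of 31 (6.45%), both higher in knockout libraries. Of all tested genes 3.88% lay higher without overlap with all libraries and 4.93% in either direction; without control replicate 1 these were 4.01% and 7.02%. Fibroblasts use P4HA1 heavily; the stroma and endothelium markers summed to 66.0, 191.2, 229.9 and 362.2 TPM across knockout replicates 1 to 4 and to 4.56, 119.8, 81.7, 146.8 and 69.7 TPM across control replicates 1 to 5. Of these 6 markers 4 had the higher mean in knockout libraries than in control replicates 2 to 5, and the endothelial gene CDH5 was at most 0.1 TPM everywhere. COL1A1, a defining fibroblast marker, was at 4.74, 14.2, 13.1 and 25.1 TPM in the knockout libraries and at 0.26, 8.04, 2.76, 11.4 and 4.49 TPM in controls. The part of stroma in the difference of P4HA1 was not tested.

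**Figure D3:**
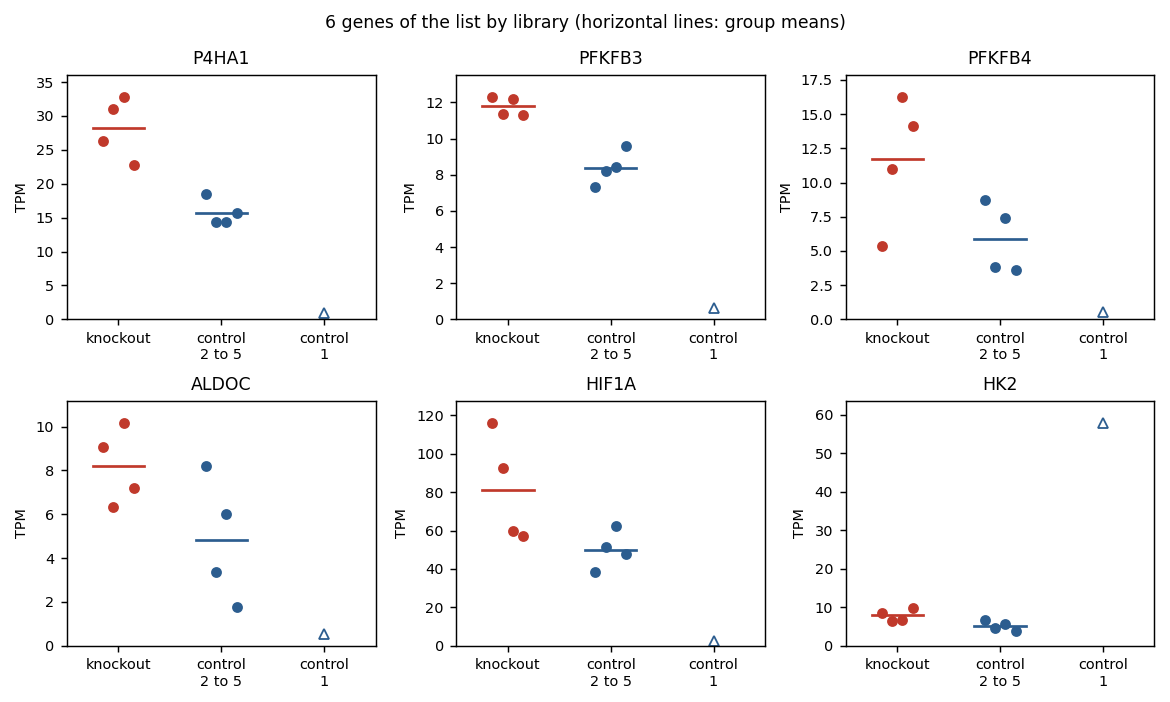
TPM (vertical axis, from 0) of P4HA1, PFKFB3, PFKFB4, ALDOC, HIF1A and HK2 in the 4 knockout libraries, control replicates 2 to 5 and control replicate 1 (open triangle), with horizontal lines at group means. The knockout circles of P4HA1 (22.8 to 32.8 TPM) and PFKFB3 (11.3 to 12.3 TPM) lie above all control symbols, and HK2 peaks at 57.9 TPM in control replicate 1.

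The promoters of these genes are shown because HIF-1 is known to bind a short core that reads ACGTG or GCGTG. Windows from 250 bases before to 50 bases after each start were taken from RefSeq on build GRCm38.p6 for 31 of the 32 genes. The following windows belong to the genes whose groups did not overlap and, for comparison, to PGK1 and LDHA, classical HIF-1 targets of high abundance whose groups overlapped. Letters are written 5′ to 3′ on the gene's strand, and capitals mark ACGTG or GCGTG on either strand (CACGT or CACGC when read on the opposite one).
P4HA1, chr10:59323046-59323345, plus strand: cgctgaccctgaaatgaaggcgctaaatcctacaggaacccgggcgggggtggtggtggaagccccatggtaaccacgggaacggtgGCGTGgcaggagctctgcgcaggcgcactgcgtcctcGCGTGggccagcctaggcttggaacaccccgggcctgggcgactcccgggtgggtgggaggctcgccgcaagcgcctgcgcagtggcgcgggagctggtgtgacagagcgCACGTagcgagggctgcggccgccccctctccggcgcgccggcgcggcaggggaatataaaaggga
PFKFB3, upstream start, chr2:11553880-11554179, minus strand: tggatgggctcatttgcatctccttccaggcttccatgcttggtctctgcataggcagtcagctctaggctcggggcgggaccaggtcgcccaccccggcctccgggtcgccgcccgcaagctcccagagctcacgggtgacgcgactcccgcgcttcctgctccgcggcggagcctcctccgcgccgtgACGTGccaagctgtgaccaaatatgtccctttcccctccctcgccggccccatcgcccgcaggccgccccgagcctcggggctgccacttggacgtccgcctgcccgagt
PFKFB3, downstream start, chr2:11502041-11502340, minus strand: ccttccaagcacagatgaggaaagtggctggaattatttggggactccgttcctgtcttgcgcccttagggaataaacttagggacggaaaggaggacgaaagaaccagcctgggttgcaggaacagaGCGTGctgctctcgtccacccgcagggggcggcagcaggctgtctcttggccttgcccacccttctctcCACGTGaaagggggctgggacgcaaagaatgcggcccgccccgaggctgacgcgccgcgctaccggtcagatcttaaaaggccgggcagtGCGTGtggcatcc
PGK1, chrX:106186850-106187149, plus strand: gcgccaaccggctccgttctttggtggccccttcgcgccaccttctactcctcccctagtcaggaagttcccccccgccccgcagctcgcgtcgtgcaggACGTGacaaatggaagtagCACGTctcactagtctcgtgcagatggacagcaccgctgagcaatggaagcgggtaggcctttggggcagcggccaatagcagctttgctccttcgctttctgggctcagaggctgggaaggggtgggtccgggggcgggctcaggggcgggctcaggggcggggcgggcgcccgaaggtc
LDHA, chr7:46845554-46845853, plus strand: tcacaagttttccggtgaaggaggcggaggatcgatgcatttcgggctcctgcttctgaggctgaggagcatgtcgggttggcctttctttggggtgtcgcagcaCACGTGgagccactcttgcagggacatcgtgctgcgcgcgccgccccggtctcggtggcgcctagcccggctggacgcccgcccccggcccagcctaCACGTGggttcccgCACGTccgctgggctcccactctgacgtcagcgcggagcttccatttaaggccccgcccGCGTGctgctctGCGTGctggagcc
The P4HA1 window held 3 matches, 1 of ACGTG and 2 of GCGTG. The PFKFB3 windows held 1 and 4, the PGK1 window 2 and the LDHA window 7. A second LDHA start, not printed, has a window with 2 matches, both of GCGTG. Some matches overlap in the palindrome CACGTG, an E-box that other factors bind. Of 47 windows of the list 51.1% held ACGTG, against 25.5% of 10901 windows of tested genes and 19.6% of 32851 windows of all genes. GCGTG was in 55.3%, 50.1% and 32.4%. The genes were chosen in part as HIF-1 targets, so these shares describe the choice. Both the separated and the overlapping genes had matches, and binding was not measured.

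The other targets were mixed. BNIP3, which drives removal of mitochondria, stood at 14.6, 7.1, 8.9 and 10.6 TPM in knockout libraries and at 0.46, 8.65, 6.63, 5.35 and 6.69 TPM in controls. Only knockout replicate 2 fell below the highest control, and the log2 difference without control replicate 1 was 0.50 with an adjusted p of 0.39 in limma. Its relative BNIP3L stood at 58.0, 65.3, 57.8 and 54.3 TPM in knockout libraries and at 3.71, 56.1, 63.9, 56.0 and 65.5 TPM in controls, fully overlapping, with a log2 difference of -0.035 without control replicate 1. P4HA2 was low, at 0.51 to 3.08 TPM in knockout libraries and up to 1.99 TPM in controls, and listed at 0 in control replicate 1. ERO1L, an oxidase of the endoplasmic reticulum, and KDM3A, a histone demethylase, had 0.095 and 0.13 without control replicate 1. In both, control replicate 2 was the lowest of the 8 other libraries.

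ANKRD37, an ankyrin repeat gene strongly induced by HIF-1, had the lowest difference of the list without control replicate 1. It stood at 16.8, 15.1, 6.56 and 6.61 TPM across knockout replicates 1 to 4 and at 5.84, 11.9, 11.9, 11.1 and 14.0 TPM across control replicates 1 to 5. The knockout libraries fell into a pair above and a pair below control replicates 2 to 5, and the log2 difference was -0.032 with all libraries and -0.22 (SE 0.30) without control replicate 1. Of its 1539 exon bases, 349 lie in exons of LRP2BP on the opposite strand, so its reads cannot be told apart there. VEGFA, the growth factor of blood vessels, was barely detected, at 0.31, 0.09, 0.07 and 0.09 TPM in knockout libraries and at 0 to 0.06 TPM in controls; the values did not overlap but were too low for a comparison.

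MIF, an abundant cytokine and HIF-1 target, was the second gene with its highest value in control replicate 1. It stood at 933, 708.4, 600.2 and 773.7 TPM in knockout libraries and at 1794, 719.8, 686.4, 684.6 and 732.7 TPM in controls. Control replicate 1 was 2.54-fold above the mean of the other controls, and the remaining libraries overlapped. The log2 difference was -0.19 with all libraries and 0.077 without control replicate 1. Control replicate 1 was lowest of the 9 libraries for 29 of the 32 genes. Among the 28 of these with a value above 0 there, the mean of the other controls was 2.10 to 38.9 times its value, with a median of 11.6. The smallest of these ratios belonged to ANKRD37. MIF and ANKRD37 have the shortest longest transcripts of the list, 600 and 927 bases, whereas that of HK2 has 5513 bases. The part of length in these values was not tested.

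Paralogues with the same activity can be compared within a library, which largely removes any scaling of that library. Of 8 pairs tested on the log2 ratio of (TPM + 1), 0 passed after adjustment over the pairs with either set of libraries. The smallest exact permutation p the 9 libraries allow, 0.0159, cannot pass that adjustment for a single pair. Without control replicate 1 the smallest, 0.0286, cannot either. The closest was PFKP over PFKL, the platelet and liver types of phosphofructokinase. The ratio was 0.98, 1.33, 1.56 and 1.31 in knockout replicates 1 to 4, and 1.41, 1.66, 1.66, 1.69 and 1.76 in control replicates 1 to 5. Leaving out control replicate 1, every knockout library lay below every control. The difference was -0.34 with all libraries (exact permutation p = 0.0317, adjusted p = 0.254) and -0.40 without control replicate 1 (exact permutation p = 0.0286, adjusted p = 0.229). PFKL made up 27.6% ± 3.66 (SD, n = 4) of phosphofructokinase TPM in knockout libraries and 22.3% ± 0.6 (SD, n = 4) in control replicates 2 to 5, and was most frequent in knockout replicate 1 at 32.5%. BNIP3 over BNIP3L differed by 0.28 with all libraries and 0.54 without control replicate 1 (exact permutation p = 0.0857, adjusted p = 0.343). LDHA made up 98.4% to 99.6% of lactate dehydrogenase TPM and ALDOA 98.8% to 99.8% of aldolase TPM in the 9 libraries. HK2 over HK1 was -2.70 to -1.78 in knockout libraries and -3.25 to -2.14 in control replicates 2 to 5, but 3.45 in control replicate 1.

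**Figure D4:**
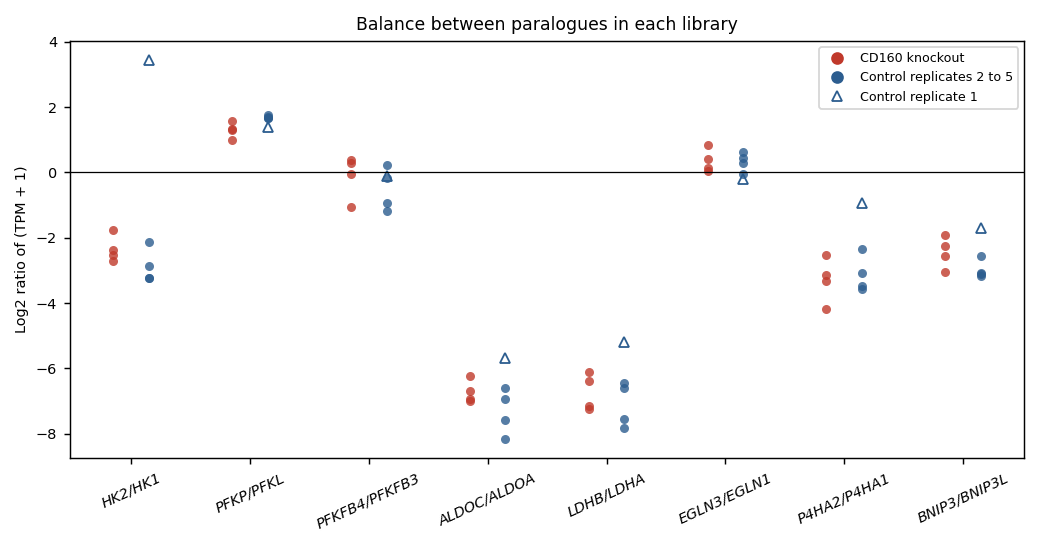
Log2 ratio of (TPM + 1) between members of 8 paralogue pairs (vertical axis) in each library, with symbols as in the plot of all genes. The PFKP/PFKL ratio is 0.98 to 1.56 in knockout libraries and 1.66 to 1.76 in control replicates 2 to 5, and the HK2/HK1 ratio of control replicate 1 stands alone at 3.45.

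Further genes of the pathways, from lists of 22 glycolysis and 28 hypoxia genes, gave 0 calls in limma among 17 and 19 tested, with and without control replicate 1. At an unadjusted p under 0.05 there were 1 of 17 (5.88%) and 2 of 19 (10.5%) with all libraries, against 6.39% of all tested genes, and 3 of 17 (17.6%) and 3 of 19 (15.8%) without control replicate 1, against 12.8%. The medians without that library were 0.097 and 0.12. In the glycolysis list HK3, G6PDX and PGD, and in the hypoxia list HMOX1, PLIN2 and NDRG1, lay above all controls in every knockout library, 3 of 17 (17.6%) and 3 of 19 (15.8%), against the 3.88% of all tested genes above. HK3, a hexokinase found mainly in myeloid cells, stood at 30.6, 17.8, 29.2 and 41.2 TPM in knockout libraries and at 0.41, 17.4, 5.25, 15.7 and 7.39 TPM in controls. Its log2 difference in limma was 1.99 with all libraries (adjusted p = 0.657) and 1.39 without control replicate 1 (adjusted p = 0.185). HMOX1, which degrades heme and is abundant in macrophages, stood at 46.0, 24.4, 41.0 and 54.3 TPM against 1.2, 16.1, 7.87, 16.2 and 8.77 TPM, a log2 difference in limma of 2.2 with all libraries (adjusted p = 0.595) and 1.69 without control replicate 1 (adjusted p = 0.113). PLIN2, a coat protein of lipid droplets, stood at 103.8, 82.8, 100.1 and 82.3 TPM against 1.64, 59.1, 31.5, 40.5 and 41.6 TPM, for which limma gave 1.91 (adjusted p = 0.735) and, without that library, 1.1 (adjusted p = 0.103). In HK3 and HMOX1 the higher controls were replicates 2 and 4, which also had the higher macrophage marker sums among controls. In both genes the lowest knockout library was replicate 2, which had the lowest sum among them. That order rests largely on LYZ2, which made up 8176 of the 10752 TPM in knockout replicate 1. By the mean log2(TPM + 1) of the 10 markers, replicate 1 was the lowest knockout library, at 7.80 against 8.52 to 9.30. PLIN2 was highest in knockout replicate 1 and lowest in knockout replicate 4, which had the highest sum. The part of macrophages in these differences was not tested.

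G6PDX and PGD, the dehydrogenases of the pentose phosphate pathway, differed less. G6PDX stood at 34.5 ± 1.17 TPM (SD, n = 4) against 26.4 ± 3.37 TPM (SD, n = 4) in control replicates 2 to 5, and PGD at 75.7 ± 12.6 against 59.8 ± 3.72 TPM. With all libraries their log2 differences were 0.93 and 1.00 in limma, each with an adjusted p of 0.745, and without control replicate 1 they were 0.38 and 0.32, with adjusted p values of 0.192 and 0.296. Without that library NDRG1, a hypoxia-induced gene, had 0.37 at 3.34 to 3.96 TPM, and the hydroxylase EGLN2 had 0.28. TIGAR, a phosphatase that slows glycolysis, had -0.26 and, as with HK2 and MIF, its highest value in control replicate 1, at 8.26 TPM against 1.58 to 3.06 TPM elsewhere. The glucose transporter SLC2A1 stood at 22.6, 11.9, 9.15 and 12.68 TPM in knockout libraries and at 0.73, 12.6, 9.88, 13.4 and 8.69 TPM in controls. Knockout replicate 1 was high and the rest overlapped, with a log2 difference of 0.26 without control replicate 1. For comparison, 34 tested genes of oxidative phosphorylation had a median of 0.10 with all libraries and -0.055 without control replicate 1, 10 of 34 being positive without it. The groups did not overlap for 8 of 34 (23.5%), all lower in knockout libraries, with either set of libraries. Of all tested genes 1.05% lay lower without overlap with all libraries and 3.01% without control replicate 1. The 8 were NDUFA1, NDUFA2, NDUFA5, NDUFB3, COX6C, COX7A2, COX7C and ATP5J, each with its highest value in control replicate 1. No test set the genes of oxidative phosphorylation against the glycolytic genes.

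**Figure D5:**
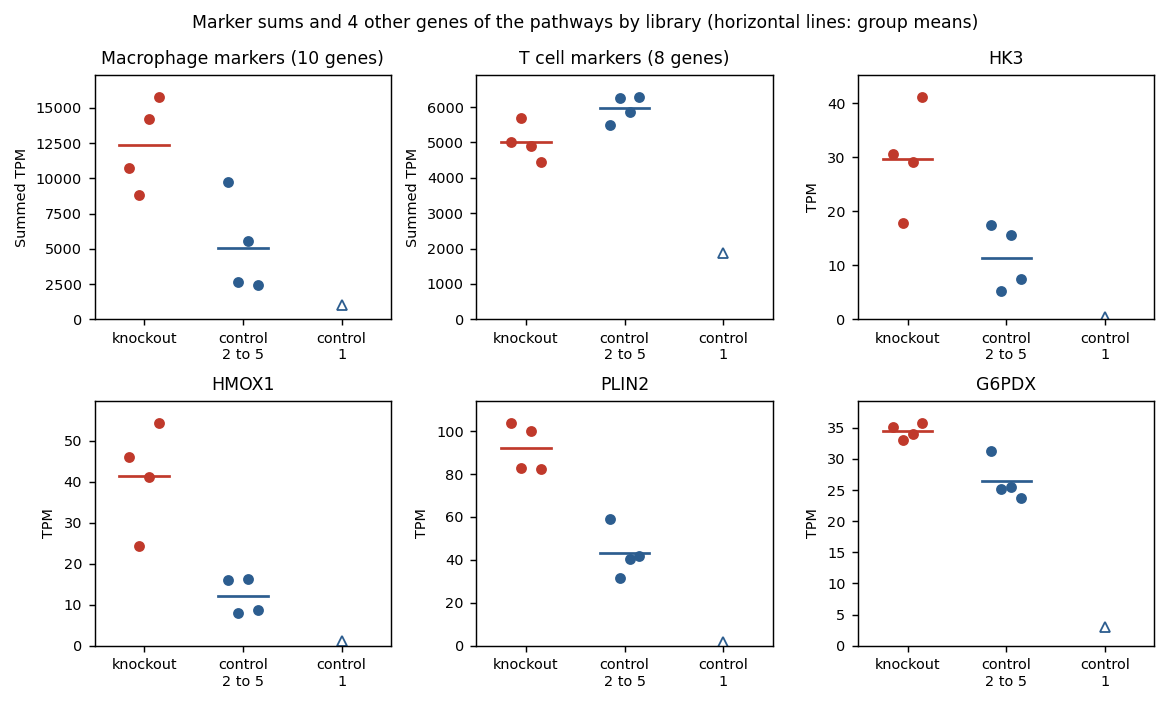
Summed TPM of 10 macrophage and 8 T cell markers, and TPM of HK3, HMOX1, PLIN2 and G6PDX (vertical axes, from 0), in the 4 knockout libraries, control replicates 2 to 5 and control replicate 1 (open triangle), with horizontal lines at group means. The macrophage sum is 8822 to 15781 TPM in knockout libraries and 2412 to 9725 TPM in control replicates 2 to 5, and HK3 and HMOX1 are highest in the knockout library with the highest sum.

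The genes lie on many chromosomes of GRCm38 (GENCODE M21). P4HA1 is at chromosome 10, 59323296 to 59373304 (ENSMUSG00000019916.14), PFKFB3 at chromosome 2, 11471433 to 11554077 (ENSMUSG00000026773.19), and HIF1A at chromosome 12, 73901375 to 73947530 (ENSMUSG00000021109.13). GAPDH, ALDOA, ENO1, PGK1, TPI1, PGAM1, LDHA, PKM and MIF have processed pseudogenes in the mouse genome. How reads shared with such copies were assigned is not given in the sources used here, so their levels carry that uncertainty. The kit does not mark strand, and BNIP3 shares 504 of its 2265 exon bases with a gene on the opposite strand.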

How the data were processed

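Polyadenylated RNA was read as full-length SMART-Seq2 libraries, paired-end with 38 bases per read, per the labels' protocols. The deposited table holds TPM, normalised by the authors so that every library has the same total. Per the submitters' processing notes, Trimmomatic 0.32, Bowtie2 2.2.9, RSEM 1.2.31 and GRCm38 were used, and their settings are not given in the sources used here. TPM keeps no depth, so no counting error is given. In TPM, very abundant transcripts lower all others. The kit does not mark strand.

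Genes reaching 1 TPM in 4 or more libraries were fitted as log2(TPM + 1) with limma 3.58.1 (lmFit, eBayes with trend) in R 4.3.3, and p-values were adjusted by Benjamini-Hochberg over all tested genes. Single values were compared with exact two-sided permutation tests. The fit was tested on simulated data. Groups and replicate numbers follow the titles. The members and gene lists were chosen with earlier results of these data known. Every library value is given for members called or without overlap, with the 3 largest differences in either direction under either set of libraries, or most abundant in their role, and for HIF1A; PDK1, BNIP3, VEGFA and the other genes were added after their values were seen. From the lists of further genes, SLC2A1 and the 4 with the smallest p of each were named. Alternatives were other pseudocounts, filters, scalings, variance models, a replicate block and each library left out.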

Additional observations from a re-analysis of the deposited data

Results flagged for a closer look

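The test applied here asks how far the highest or lowest library of a group lies from the nearest of the others, as a share of the whole range of the group in log2(TPM + 1), and it picks about 1 in 20 groups by chance. In 25 cases control replicate 1 lay far below the other 4 controls. These were the mean over all genes of the list (0.957) and, among enzymes of upper glycolysis, HK1 (0.795), GPI1 (0.937), PFKL (0.898), PFKM (0.868), PFKP (0.910), PFKFB3 (0.870) and ALDOA (0.958). Among the lower enzymes they were TPI1 (0.902), GAPDH (0.919), PGK1 (0.954), PGAM1 (0.944), ENO1 (0.935) and PKM (0.980). The genes of pyruvate fate were LDHA (0.960) and PDK1 (0.818), and those of HIF-1 control were HIF1A (0.839), VHL (0.894), EGLN1 (0.727) and EGLN3 (0.916). The remaining HIF-1 targets were P4HA1 (0.894), BNIP3 (0.778), BNIP3L (0.942), ANKRD37 (0.726) and ERO1L (0.748). Control replicate 1 lay far above the other controls for HK2 (0.816) and MIF (0.930). Knockout replicate 1 lay far above the other knockout libraries for VEGFA (0.908), whose levels were all under 1 TPM. These cases share 1 library in nearly every instance and are not independent.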

How the results depend on the processing

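Of the list, 0 genes were called under every alternative but library quality weights, which called 1 of 31, P4HA1. The count of all genes called was 2 with all libraries, 0 to 3 under the other alternatives that keep all 9 libraries, and 521 of 11495 with those weights. The median difference of the list was 0.28 with median-of-ratios scaling, 0.45 with quantile scaling and 0.15 with library quality weights. These moved the median of all tested genes from 0.46 to 0.018, -0.0011 and -0.045. When 1 library was left out, the median of the list was 0.19 to 1.02 and that of all tested genes -0.014 to 0.60. Genes without overlap numbered 2 to 5 when 1 library was left out: 4 without knockout replicate 1 (11.3% of all genes), 4 without knockout replicate 2 (6.63%), 5 without knockout replicate 3 (6.81%), 4 without control replicate 2 (8.12%) and 4 without control replicate 4 (6.69%). Fewer libraries overlap less by construction. Leaving out control replicate 1 and knockout replicate 1 together, chosen after seeing the data, gave 4 (14.0%).

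Log2 differences changed sign as follows, with no call gained or lost and the cause not tested. Under median-of-ratios scaling GAPDH was -0.071 and EGLN1 -0.015, and under quantile scaling EGLN1 was -0.070. Library quality weights gave HK1 -0.080, HK2 0.61, PFKP -0.17, GAPDH -0.036, BNIP3L -0.061, MIF 0.024 and KDM3A -0.044. When 1 library was left out, the range was -0.37 to 0.54 for HK2, -0.027 to 0.60 for PFKM, -0.11 to 0.92 for PFKP, -0.035 to 0.92 for BNIP3L, -0.25 to 0.16 for ANKRD37 and -0.30 to 0.077 for MIF. Without control replicate 1 and with median-of-ratios scaling HK2 was 0.54, PFKM -0.026, PFKP -0.11, BNIP3L -0.032 and MIF 0.080. Without control replicate 1 and knockout replicate 1, HK1 was -0.039, HK2 0.50, PFKP -0.16, GAPDH -0.12, EGLN3 -0.0034 and BNIP3L -0.029. Of the paralogue ratios, P4HA2/P4HA1 was 0.076 with a pseudocount of 0.1, and with a pseudocount of 5 ALDOC/ALDOA was -0.23 and LDHB/LDHA -0.29. When 1 library was left out they ran from -1.15 to 0.53 for HK2/HK1, -0.018 to 0.60 for ALDOC/ALDOA, -0.27 to 0.39 for LDHB/LDHA and -0.021 to 0.24 for EGLN3/EGLN1.

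Knockout and control libraries share only replicate numbers, which did not pair them: the correlations of deviations for numbers 1 to 4 were -0.017, -0.093, -0.14 and -0.089. With a replicate block the median of the list was 0.95, against 0.58 for all tested genes, 0 genes were called and ANKRD37 was 0.062. With the block and without control replicate 1 the median of the list was 0.085, against 0.020 for all tested genes. In that fit 24 of 31 were positive (77.4%), where 53.7% of all tested genes were. There HK1 was -0.030, HK2 0.38, PFKP -0.11, GAPDH -0.14, VHL -0.016 and EGLN3 -0.0018. TPM carries no read depth, so the counting error of low genes such as VEGFA, P4HA2 and PDK1 is unknown.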
